A study of Mus musculus with 6 samples.

Results

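CD8- conventional dendritic cells (cDC) of the mouse spleen were described by the genes whose array signal set them apart from both other populations of the series, macrophages and CD8+ cDC. The population was chosen by its label and comprises 2 of the 6 arrays. RNA from spleen of strain C57/B6 was hybridised to Illumina bead arrays for CD8- cDC (2 arrays), macrophages (2 arrays) and CD8+ cDC (2 arrays), each labelled replicate 1 and replicate 2. No treatment or altered gene is named for any group. The sources used here do not give how the cells were isolated, the age and sex of the mice, or whether replicates came from separate animals, so p-values measure the spread between these arrays, which may be technical.

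Conventional dendritic cells take up antigen and present it to T cells, and in the mouse spleen they fall into a CD8+ and a CD8- type. CD8+ cDC are known for taking up dying cells and presenting their antigens on MHC class I, with Batf3 and Irf8 needed for their development. CD8- cDC, most of which carry CD11b and many of which carry CD4, are known for presenting antigen on MHC class II to helper T cells, and Irf4, Relb, Notch2 signalling and lymphotoxin take part in their formation or upkeep. Splenic macrophages of the red pulp clear old red cells and recycle their iron.

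Every value below is a log2 array signal from the authors' deposited table. A difference is a difference of log2 levels, tested with limma over all 45281 probes with Benjamini-Hochberg adjustment, and a gene was called at an adjusted p under 0.05. Each of 19057 genes was represented by the probe with the highest mean. Signals at or under 5.25 were treated as background, this being the 99th percentile of 1595 probes for genes that spleen cells should not use, among them odorant and taste receptors. Where an array of the dimmer population was at or under that level, a fold is given as "at least", with background in place of the dim signal. Between 15802 and 15827 probes per array were above background.

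Against the mean of macrophages and CD8+ cDC, 485 genes were called higher in CD8- cDC (2.54%) and 714 lower (3.75%). Most of these calls came from one side. Of the 485, 91 were called higher than each population separately, 369 than macrophages only, 15 than CD8+ cDC only and 10 than neither. Of the 714, 111 were called lower than each, 524 than macrophages only, 70 than CD8+ cDC only and 9 than neither. In the separate comparisons, 1131 genes (5.93%) were higher and 1361 (7.14%) lower than in macrophages, whereas 144 (0.756%) were higher and 245 (1.29%) lower than in CD8+ cDC.

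A gene was counted as setting CD8- cDC apart when it was called the same way against each population with a log2 difference of at least 1 in both. By this rule 77 genes were higher (0.404%) and 85 lower (0.446%). The CD8- cDC arrays did not overlap the other 4 in any of the 77 or the 85, a pattern that 2011 genes showed upward (10.6%) and 1863 downward (9.78%) over all genes. The median difference of the 77 was 2.14 from macrophages and 1.75 from CD8+ cDC, and that of the 85 was -2.27 and -1.84. With the replicate number as a block, 57 of the 77 and 67 of the 85 were still called, and all of the lost calls were against CD8+ cDC. Both counts rest on every cDC array. Leaving out any 1 of the 4 cDC arrays left 0 genes called by limma against CD8+ cDC, where between 2310 and 2663 had an unadjusted p under 0.05. Without macrophage replicate 1 the counts were 40 higher and 41 lower, and without replicate 2 they were 39 and 37. Of the 77 these fits still called 29 and 28, and of the 85 they still called 37 and 34. All 77 and all 85 genes kept their direction against both populations in each of these fits, which the lack of overlap between arrays fixes beforehand.

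**Figure D1:**
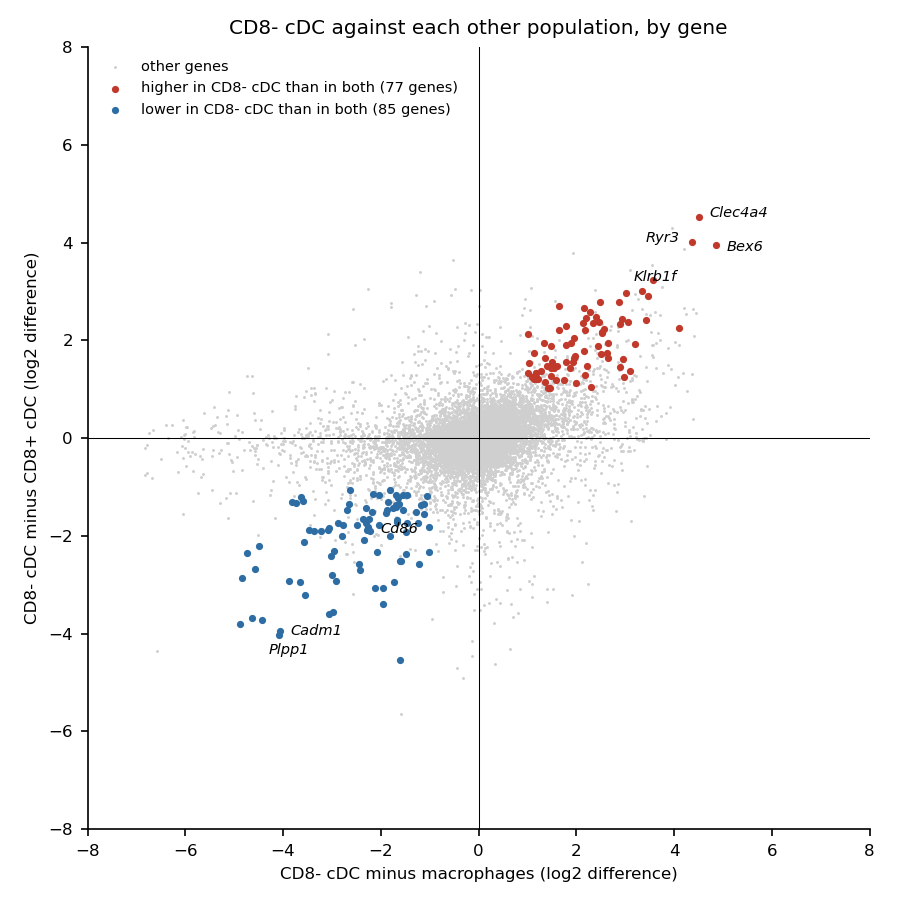
Log2 difference of CD8- cDC from macrophages (x axis) and from CD8+ cDC (y axis) for 19057 genes, 1 point per gene. The 77 genes higher than both (red) lie in the upper right, led by Clec4a4 at 4.51 on both axes, and the 85 genes lower than both (blue) lie in the lower left, with Plpp1 at -4.08 and -4.03.

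The label was checked against cell type markers. Over 26 listed markers of CD8- cDC, the mean level was 9.08 and 9.18 on the CD8- cDC arrays, 8.16 and 7.71 on the macrophage arrays and 7.91 and 7.80 on the CD8+ cDC arrays. Against the mean of both populations 9 of the 26 were higher and 0 lower (2.54% and 3.75% over all genes). At an unadjusted p under 0.05 the counts were 13 and 0, and the median difference was 0.73 beside -0.01 over all genes. Against macrophages 11 were higher and 2, Tlr7 among them, lower (5.93% and 7.14% over all genes), or 13 and 3 unadjusted. Against CD8+ cDC 4 were higher and 0 lower (0.756% and 1.29% over all genes), or 16 and 0 unadjusted. Clec4a4, Cd4 and Itgam were higher than in each population. Clec12a, Clec4a2, Rbpj and Epcam were at background on all 6 arrays, so they say little about the label.

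Listed genes of the neighbouring type were mostly lower in CD8- cDC than in CD8+ cDC, with Batf3 as an exception. Cd8a, whose product names the CD8+ type, was at 4.38 and 4.51 in CD8- cDC, 4.49 and 4.33 in macrophages and 5.67 and 4.96 in CD8+ cDC, all close to background. Xcr1, a chemokine receptor that marks CD8+ cDC, was at 6.09 and 5.11 in CD8- cDC, 6.31 and 5.18 in macrophages and 10.10 and 10.02 in CD8+ cDC. Its level in CD8- cDC lay among the macrophage values and far below CD8+ cDC, with a difference of -4.46 from CD8+ cDC (adjusted p = 0.0344). Of 25 listed CD8+ cDC markers, 8 were lower in CD8- cDC than in CD8+ cDC and 0 higher (1.29% and 0.756% over all genes). At an unadjusted p under 0.05 the counts were 24 and 0. Their mean level was 7.89 and 7.33 in CD8- cDC, 7.96 and 7.22 in macrophages and 10.40 and 10.24 in CD8+ cDC. Batf3, also listed, was at 11.36 and 11.25 in CD8- cDC, 10.16 and 10.74 in macrophages and 11.26 and 11.28 in CD8+ cDC. Its difference from CD8+ cDC was 0.03 (adjusted p = 0.997).

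Markers of other cells differed between replicates. The mean level of 22 macrophage markers was 8.34 and 6.83 in CD8- cDC, 12.04 and 12.30 in macrophages and 6.62 and 8.44 in CD8+ cDC, so replicate 1 held more of them in CD8- cDC and replicate 2 in CD8+ cDC. Replicate 1 was the higher in CD8- cDC for 19 of these 22 markers, and Fcgr1, Cd5l and Siglec1 were at background on both CD8- cDC arrays. The mean of 9 T cell markers was 6.38 and 5.51 in CD8- cDC, 6.70 and 4.93 in macrophages and 6.21 and 5.32 in CD8+ cDC, and Cd5, Cd28 and Cd247 were at background on all 6 arrays. Of 12 neutrophil markers, 8 were at background on both CD8- cDC arrays, as were 9 of 10 platelet and 4 of 9 erythroid markers. Over all probes and arrays, 65.1% of values were under background, so these counts do not show that such cells were absent. Replicate 1 was the higher in CD8- cDC for 10 of the 12 neutrophil markers. Mmp9, a neutrophil marker, and 1 erythroid marker were called higher in the mean contrast, and 0 of either list lower (2.54% and 3.75% over all genes). The mean of 11 NK cell markers was 6.19 and 6.01 in CD8- cDC, 5.75 and 5.42 in macrophages and 5.78 and 5.74 in CD8+ cDC, highest in CD8- cDC, and 5 were at background on both CD8- cDC arrays. In the mean contrast 1 NK cell marker was higher and 0 lower (2.54% and 3.75% over all genes), with 4 and 0 at an unadjusted p under 0.05. The called one was Prf1, perforin, at 11.14 and 11.42 in CD8- cDC, 9.48 and 9.62 in macrophages and 10.23 and 10.43 in CD8+ cDC (1.34, adjusted p = 0.0133). The mean of 9 B cell markers was 6.81 and 6.35 in CD8- cDC, 6.96 and 6.35 in macrophages and 7.41 and 6.65 in CD8+ cDC. The mean of 11 plasmacytoid dendritic cell markers was 7.96 and 8.05 in CD8- cDC, 8.13 and 7.07 in macrophages and 9.35 and 8.23 in CD8+ cDC, with 10 of the 11 above background on each CD8- cDC array. The part of these cells in the results below was not tested. In arrays of a whole population, fewer cells with a transcript and less of it per cell cannot be told apart.

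**Figure D2:**
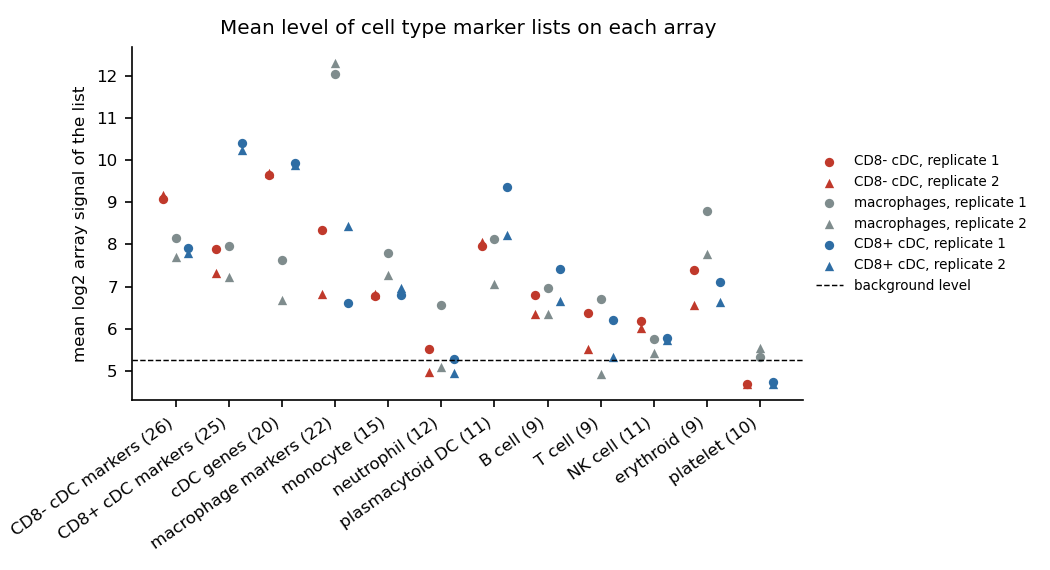
Mean log2 signal of the listed markers of 12 cell types on each array, with circles for replicate 1, triangles for replicate 2 and the number of measured markers in parentheses. CD8- cDC (red) stand above both other populations in their own marker list, at 9.08 and 9.18, and their 2 arrays differ in macrophage markers, at 8.34 and 6.83.

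Clec4a4 headed the 77 higher genes. It encodes an inhibitory C-type lectin, DCIR2, which the antibody 33D1 recognises on CD8- cDC. Its signal was 11.64 and 11.65 in CD8- cDC, 7.21 and 7.05 in macrophages and 6.24 and 8.02 in CD8+ cDC. The CD8- cDC arrays were nearly equal while the CD8+ cDC arrays lay wide apart. The difference was 4.51 ± 0.58 (SE) against each, or 22.9-fold, with adjusted p = 0.0149 against macrophages and 0.0479 against CD8+ cDC. The second became 0.057 with the replicate number as a block.

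Klrb1f encodes a lectin-like receptor of the natural killer gene complex. It was at 7.91 and 7.93 in CD8- cDC, 4.79 and 4.35 in macrophages and 4.93 and 4.91 in CD8+ cDC, so all 4 other arrays were at background. The signal was at least 6.35-fold higher in CD8- cDC than in either (adjusted p = 0.002 and 0.0154). Another Klrb1f probe, at 6.06 and 5.10 in CD8- cDC, was called against neither (1.10 and 1.09, adjusted p = 0.128 and 0.270). Of 21 lectin-like receptors of that complex, Klrb1f was the 1 gene called higher than CD8+ cDC (0.756% over all genes). Klri2 was also high in CD8- cDC, at 8.58 and 9.16 against 5.19 and 4.54 in macrophages and 6.43 and 7.37 in CD8+ cDC, but its difference of 1.97 from CD8+ cDC was not called (adjusted p = 0.139).

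Receptors for lipid mediators and cytokines were also among the 77. Ptger3, the EP3 receptor for prostaglandin E2, was at 8.25 and 8.29 in CD8- cDC, 5.33 and 5.19 in macrophages and 5.05 and 5.56 in CD8+ cDC. This was at least 7.89-fold and at least 7.29-fold higher (adjusted p = 0.003 and 0.0169). Ptger2, another receptor for the same prostaglandin, went the other way, at 4.81 and 4.84 in CD8- cDC, 7.30 and 7.79 in macrophages and 6.76 and 7.65 in CD8+ cDC. It was lower than in macrophages by 2.72 (adjusted p = 0.0135), and its difference of -2.38 from CD8+ cDC had adjusted p = 0.0578, or 0.0414 with the replicate number as a block.

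Il31ra, a subunit of the interleukin-31 receptor, was at 7.05 and 7.39 in CD8- cDC and at background on the other 4 arrays, at least 3.91-fold higher than each (adjusted p = 0.00257 and 0.0169). Lpar3, a receptor for lysophosphatidic acid, was at 7.50 and 7.64 in CD8- cDC, 4.45 and 4.47 in macrophages and 6.18 and 6.23 in CD8+ cDC. The 3 populations did not overlap, and the 2 others differed as well (adjusted p = 0.00229). Milr1, an inhibitory receptor first described on mast cells, was at 9.06 and 9.05 in CD8- cDC, 7.59 and 7.55 in macrophages and 7.63 and 7.60 in CD8+ cDC. Its differences of 1.49 and 1.44 had an SE of 0.08, the smallest spread among the receptors named here.

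Cd4, Itgam and Esam are markers by which the CD8- type is often defined or divided. Cd4 was at 7.80 and 8.31 in CD8- cDC, 6.15 and 6.66 in macrophages and 5.54 and 5.16 in CD8+ cDC, with differences of 1.65 from macrophages and 2.71 from CD8+ cDC (adjusted p = 0.029 and 0.0293). Itgam, the gene for CD11b, was at 5.54 and 5.90 in CD8- cDC and at background on the other 4 arrays, at least 1.38-fold higher than each (adjusted p = 0.0136 and 0.0394). Its signal in CD8- cDC was itself only just above background. Esam, an adhesion molecule of a Notch2-dependent CD8- cDC subset, was at 11.42 and 11.73 in CD8- cDC, 10.35 and 10.63 in macrophages and 9.13 and 9.83 in CD8+ cDC. It was called against CD8+ cDC (2.10, adjusted p = 0.0482), while its difference of 1.09 from macrophages was not (adjusted p = 0.0871, and 0.0244 with the replicate number as a block).

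**Figure D3:**
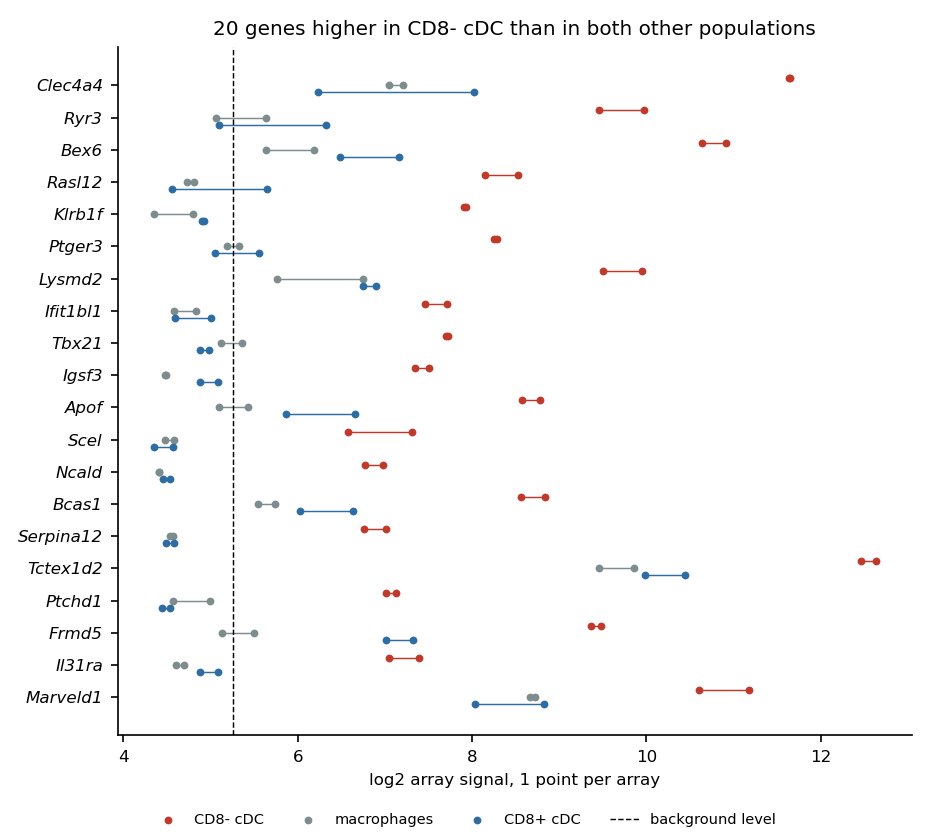
Log2 signal on each array for the 20 genes with the largest smaller difference among those higher in CD8- cDC (red) than in macrophages (grey) and CD8+ cDC (blue), with a line joining the 2 arrays of a population and a dashed line at background. The CD8- cDC points lie to the right of all others in each row, and for genes such as Klrb1f, Igsf3, Ncald and Serpina12 all 4 other arrays are at background.

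Single genes of calcium handling and signalling were among the 77. Ryr3, a calcium release channel of the endoplasmic reticulum, was at 9.46 and 9.97 in CD8- cDC, 5.64 and 5.06 in macrophages and 5.10 and 6.32 in CD8+ cDC. It was at least 19.3-fold higher than macrophages (adjusted p = 0.00966) and at least 15.2-fold higher than CD8+ cDC (adjusted p = 0.0399, and 0.0525 with the replicate number as a block). Its relative Ryr1 was high in both cDC types, at 10.28 and 9.46 in CD8- cDC and 9.42 and 9.05 in CD8+ cDC, against 6.44 and 5.49 in macrophages. Its difference between the cDC types, 0.64, was not called (adjusted p = 0.773). Of 25 listed calcium and potassium channel and store genes, 2 were higher and 3 lower in the mean contrast (2.54% and 3.75% over all genes), with 5 and 7 at an unadjusted p under 0.05. Against macrophages 2 were higher and 4 lower (5.93% and 7.14% over all genes). Against CD8+ cDC 2 were higher and 0 lower (0.756% and 1.29% over all genes), where 4 and 4 had an unadjusted p under 0.05.

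Ncald, a calcium sensor of the neurocalcin family, was at 6.97 and 6.77 in CD8- cDC and at background on the other 4 arrays, at least 3.07-fold higher than each (adjusted p = 0.00175 and 0.0121). Rasl12, a small GTPase of the Ras family, was at 8.15 and 8.53 in CD8- cDC, 4.81 and 4.73 in macrophages and 4.56 and 5.64 in CD8+ cDC. Only 1 of the other 4 arrays, CD8+ cDC replicate 2, was above background, and the signal was at least 8.49-fold and at least 7.42-fold higher in CD8- cDC. Prkcb, a calcium-dependent protein kinase C, was bright everywhere, at 12.26 and 12.37 in CD8- cDC, 11.34 and 11.11 in macrophages and 11.17 and 10.95 in CD8+ cDC, with differences of 1.09 and 1.25 (adjusted p = 0.0134 and 0.0335). Ptpro, a receptor-type tyrosine phosphatase, was at 10.16 and 10.62 in CD8- cDC, 7.98 and 7.75 in macrophages and 8.17 and 8.26 in CD8+ cDC, 5.76-fold and 4.52-fold higher.

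Of 47 listed transcription factors of dendritic cells and macrophages, 2, Tbx21 and Stat4, were higher in CD8- cDC than in both populations (0.404% over all genes). Tbx21, or T-bet, drives interferon gamma production in lymphocytes. It was at 7.71 and 7.73 in CD8- cDC, 5.36 and 5.12 in macrophages and 4.99 and 4.88 in CD8+ cDC. The CD8- cDC arrays were almost equal and the other 4 near or under background, so that the signal was at least 5.32-fold and at least 5.52-fold higher (adjusted p = 0.00184 and 0.0119). Stat4, which carries signals from the interleukin-12 receptor, was at 9.67 and 9.87 in CD8- cDC, 8.82 and 8.64 in macrophages and 8.05 and 8.41 in CD8+ cDC, with differences of 1.04 and 1.54 (adjusted p = 0.0253 and 0.0331).

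Irf4 and Relb, factors tied to CD8- cDC formation, were not called against CD8+ cDC, which does not show that they were less particular to CD8- cDC. Irf4 was at 9.61 and 9.69 in CD8- cDC, 7.76 and 6.94 in macrophages and 8.97 and 8.82 in CD8+ cDC, called against macrophages (2.30, adjusted p = 0.0127) and not against CD8+ cDC (0.75, adjusted p = 0.406). Relb was at 11.51 and 11.64 in CD8- cDC, 8.87 and 9.23 in macrophages and 9.74 and 10.27 in CD8+ cDC. Its difference from CD8+ cDC was 1.57 with adjusted p = 0.0586, and 0.0352 with the replicate number as a block. Zbtb46, a factor of all conventional dendritic cells, was at 9.33 and 9.48 in CD8- cDC and 9.68 and 9.49 in CD8+ cDC, against 6.17 and 6.47 in macrophages.

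Interferon-stimulated genes were higher in CD8- cDC than in CD8+ cDC in 7 of 32 listed members and lower in 0, beside 0.756% higher over all genes, and the counts at an unadjusted p under 0.05 were 19 and 2. The median difference of the list from CD8+ cDC was 0.81, where it was 0.00 over all genes. Against macrophages 6 were higher and 3 lower (5.93% and 7.14% over all genes), with a median of -0.06. Of the list, 4 genes passed against both populations (0.404% over all genes), namely Ifitm1, Ifitm2, Ifitm6 and Oasl2. The Ifitm proteins sit in membranes and block virus entry.

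Ifitm6 was at 12.36 and 12.04 in CD8- cDC, 10.21 and 9.88 in macrophages and 9.39 and 9.69 in CD8+ cDC, 4.45-fold and 6.32-fold higher (adjusted p = 0.0064 and 0.0181). Ifitm2 was at 12.53 and 12.46 in CD8- cDC, 11.12 and 11.17 in macrophages and 10.71 and 11.01 in CD8+ cDC, 2.55-fold and 3.10-fold higher. Ifitm3 did not follow them, since it averaged 12.96 ± 0.18 in CD8- cDC, 12.84 ± 0.10 in macrophages and 11.20 ± 0.28 in CD8+ cDC (SD, n = 2 each). Ifit1bl1, a member of the interferon-induced Ifit family that was not on the list, was at 7.46 and 7.72 in CD8- cDC and at background on the other 4 arrays. It was at least 5.04-fold higher than each (adjusted p = 0.00353 and 0.0171). Oasl2, a relative of the antiviral oligoadenylate synthetases, was at 10.29 and 10.23 in CD8- cDC, 8.73 and 8.22 in macrophages and 7.81 and 8.14 in CD8+ cDC, 3.45-fold and 4.89-fold higher.

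Promoter windows from RefSeq (build GRCm38.p6, 250 bases before to 50 after the start) are printed for 3 of these interferon-related genes, each with a run described below. Ifitm1 and Oasl2, also higher than both populations, have promoter windows with neither run, so the runs are not shared by the set. Capitals mark a run found on either strand. In Ifit1bl1 and Ifitm2 it is GAAA, any 2 bases and GAAA, a form of the interferon response element, and in Ifitm6 it is GGAA, any 2 bases and GAAA, a form of the composite element of ETS and IRF factors. The windows are chr19:34601919-34602218, chr7:140955912-140956211 and chr7:141016843-141017142, each on the minus strand and written 5′ to 3′ along the gene.
Ifit1bl1: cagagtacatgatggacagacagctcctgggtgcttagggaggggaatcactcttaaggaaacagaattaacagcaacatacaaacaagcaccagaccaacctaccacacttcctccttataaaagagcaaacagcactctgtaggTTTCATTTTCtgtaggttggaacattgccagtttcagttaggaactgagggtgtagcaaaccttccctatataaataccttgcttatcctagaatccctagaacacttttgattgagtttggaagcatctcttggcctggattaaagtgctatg
Ifitm2: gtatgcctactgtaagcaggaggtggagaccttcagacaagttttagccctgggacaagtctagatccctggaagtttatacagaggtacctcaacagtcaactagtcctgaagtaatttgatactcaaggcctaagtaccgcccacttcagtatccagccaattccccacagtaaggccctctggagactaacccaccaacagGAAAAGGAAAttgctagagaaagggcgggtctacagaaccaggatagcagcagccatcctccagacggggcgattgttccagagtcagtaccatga
Ifitm6: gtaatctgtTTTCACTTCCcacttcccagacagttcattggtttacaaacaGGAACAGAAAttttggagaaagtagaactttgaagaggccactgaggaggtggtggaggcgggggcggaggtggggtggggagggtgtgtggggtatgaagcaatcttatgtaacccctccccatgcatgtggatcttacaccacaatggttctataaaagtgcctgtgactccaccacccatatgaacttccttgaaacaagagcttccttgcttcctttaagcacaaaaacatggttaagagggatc
The interferon response element was present in the windows of 7 of the 63 higher genes found in the promoter table (11.1%), of 2 of the 61 lower genes found there (3.28%) and of 3.99% of 27025 genes in the table. Besides Ifit1bl1 and Ifitm2, the 7 held Stat4, Vegfa, Arhgap6, Haus5 and BC147527. The composite element was present in 1 of the 63 (1.59%), 1 of the 61 (1.64%) and 3.16% of the table's genes. A match is a run of letters and was not tied to binding.

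Other genes higher in CD8- cDC than in both populations have varied known roles. Bex6 was at 10.64 and 10.91 in CD8- cDC, 6.19 and 5.64 in macrophages and 6.48 and 7.16 in CD8+ cDC, 29-fold and 15.5-fold higher (adjusted p = 0.003 and 0.0195), and had the largest difference from macrophages among the 77, at 4.86. Tctex1d2, a dynein light chain, was at 12.46 and 12.63 in CD8- cDC, 9.86 and 9.45 in macrophages and 9.99 and 10.44 in CD8+ cDC, 7.42-fold and 5.03-fold higher. Fut4, the fucosyltransferase that makes the CD15 glycan, was at 10.36 and 10.54 in CD8- cDC, 9.15 and 9.18 in macrophages and 8.85 and 9.28 in CD8+ cDC, 2.44-fold and 2.60-fold higher.

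Hic1, a transcriptional repressor, was ordered in 3 steps, at 7.65 and 7.61 in CD8- cDC, 4.58 and 4.73 in macrophages and 6.29 and 6.47 in CD8+ cDC. Frmd5, a FERM domain protein, showed the same order, at 9.36 and 9.48 in CD8- cDC, 5.13 and 5.50 in macrophages and 7.01 and 7.33 in CD8+ cDC. Across the 77, macrophages and CD8+ cDC were called different in 12, with CD8+ cDC the higher of the pair in 11. In 18 of the 77 all 4 other arrays were at background, and in 39 all 6 arrays were above it. CD8+ cDC replicate 2, the one with more macrophage marker signal, was above replicate 1 in 49 of the 77. The share over all genes was not counted, and a tie to macrophage signal was not tested.

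The 85 lower genes are those that macrophages and CD8+ cDC shared and CD8- cDC had less of. Plpp1, a lipid phosphate phosphatase, and Cadm1, an adhesion molecule that binds the T cell protein CRTAM, headed them. Plpp1 was at 7.35 and 6.25 in CD8- cDC, 10.73 and 11.03 in macrophages and 10.92 and 10.76 in CD8+ cDC. Cadm1 was at 8.22 and 7.27 in CD8- cDC, 11.73 and 11.91 in macrophages and 11.62 and 11.76 in CD8+ cDC. In both, the 4 other arrays lay together and both CD8- cDC arrays far below. Plpp1 was 16.9-fold and 16.4-fold lower (adjusted p = 0.00692 and 0.0249) and Cadm1 16.8-fold and 15.4-fold lower (adjusted p = 0.00492 and 0.0206). Both genes were on the list of CD8+ cDC markers, and the macrophage arrays were as bright for them as the CD8+ cDC arrays.

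CD8- cDC replicate 1, the array with more macrophage marker signal, was above replicate 2 in 57 of the 85 genes, Plpp1 and Cadm1 among them. Neither this count nor the medians that follow have a value over all genes beside them. A tie to macrophage signal was not tested. The median of replicate 2 minus replicate 1 over the 85 was -0.18 in CD8- cDC, beside 0.19 in macrophages and 0.10 in CD8+ cDC. In 71 of the 85 all 6 arrays were above background, and in 10 both CD8- cDC arrays were at it.

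**Figure D4:**
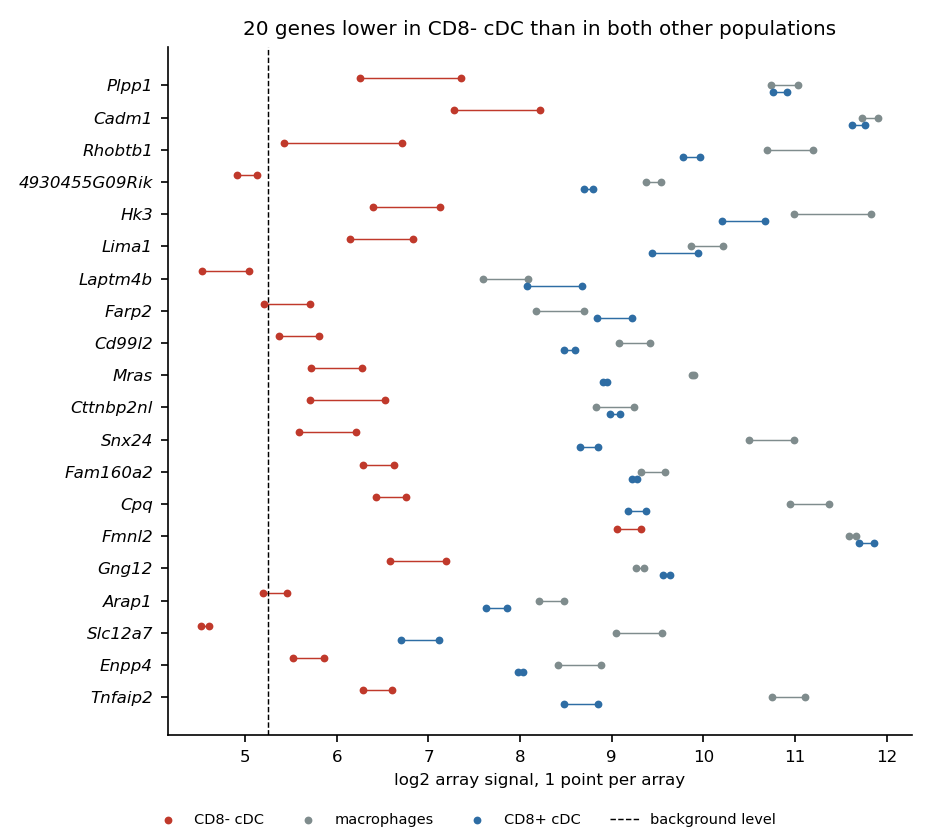
Log2 signal on each array for the 20 genes with the largest smaller difference among those lower in CD8- cDC (red) than in macrophages (grey) and CD8+ cDC (blue), with a line joining the 2 arrays of a population and a dashed line at background. The CD8- cDC points lie to the left of all others in each row, and the grey and blue points lie close together for Plpp1, Cadm1 and Cttnbp2nl and apart for Snx24, Cpq and Slc12a7.

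Genes of energy and lipid metabolism were among the 85. Hk3, a hexokinase of myeloid cells, was at 7.12 and 6.40 in CD8- cDC, 10.98 and 11.83 in macrophages and 10.20 and 10.67 in CD8+ cDC. It was 25-fold lower than macrophages (adjusted p = 0.00574) and 12.8-fold lower than CD8+ cDC (adjusted p = 0.0335, and 0.0513 with the replicate number as a block). Fads1, a fatty acid desaturase, was at 9.13 and 9.06 in CD8- cDC, 11.87 and 11.85 in macrophages and 10.85 and 10.90 in CD8+ cDC, 6.80-fold and 3.43-fold lower (adjusted p = 0.00154 and 0.0121). Aldh3b1, an aldehyde dehydrogenase, was at 8.41 and 8.29 in CD8- cDC, 11.91 and 11.92 in macrophages and 10.33 and 10.63 in CD8+ cDC. For Fads1 and Aldh3b1 the macrophage arrays were the brightest and CD8+ cDC lay between.

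Products of the endosome and lysosome among the 85 included Laptm4b, Scarb2, Slc11a1 and Galc. Laptm4b, a lysosomal membrane protein, was at background in CD8- cDC, at 5.04 and 4.53, beside 8.09 and 7.59 in macrophages and 8.68 and 8.08 in CD8+ cDC, at least 6.01-fold and at least 8.72-fold lower (adjusted p = 0.00842 and 0.0226). Scarb2, the LIMP-2 protein that carries glucocerebrosidase to the lysosome, was at 7.93 and 7.70 in CD8- cDC, 10.01 and 10.22 in macrophages and 9.31 and 9.16 in CD8+ cDC, 4.94-fold and 2.69-fold lower. Slc11a1, the phagosomal metal transporter NRAMP1, was at 11.56 and 10.90 in CD8- cDC, 14.25 and 14.32 in macrophages and 12.99 and 13.15 in CD8+ cDC. It was 8.31-fold lower than macrophages (adjusted p = 0.00459) and 3.58-fold lower than CD8+ cDC (adjusted p = 0.0457, and 0.0645 with the replicate number as a block). Galc, a lysosomal galactosylceramidase, was at 4.50 and 4.47 in CD8- cDC, 6.45 and 6.60 in macrophages and 5.56 and 5.75 in CD8+ cDC, which is near background in the last.

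Some single genes that act on small GTPases or actin were among the 85, which says nothing of such genes as a group. Of 29 listed S100 proteins, annexins and actin regulators, 4 were higher and 3 lower in the mean contrast (2.54% and 3.75% over all genes), with 13 and 4 at an unadjusted p under 0.05. Against macrophages 11 were higher and 4 lower (5.93% and 7.14% over all genes). Against CD8+ cDC 1 was higher and 1 lower (0.756% and 1.29% over all genes). Mras, a GTPase of the Ras family, was at 6.28 and 5.71 in CD8- cDC, 9.89 and 9.87 in macrophages and 8.91 and 8.95 in CD8+ cDC, 14.8-fold and 7.63-fold lower (adjusted p = 0.00209 and 0.0169). Farp2, an exchange factor for Rac, was at 5.71 and 5.21 in CD8- cDC, 8.17 and 8.69 in macrophages and 8.84 and 9.22 in CD8+ cDC, at least 7.73-fold and at least 11.7-fold lower. Fmnl2, a formin that extends actin filaments, was at 9.06 and 9.32 in CD8- cDC, 11.67 and 11.59 in macrophages and 11.69 and 11.86 in CD8+ cDC, 5.42-fold and 6.01-fold lower, with the 4 other arrays within a narrow band. Lima1, an actin cross-linker, was at 6.14 and 6.83 in CD8- cDC, 10.22 and 9.86 in macrophages and 9.44 and 9.94 in CD8+ cDC, 11.7-fold and 9.21-fold lower.

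Genes that act on T cells differed as well. Cd86, a costimulatory ligand of CD28, was at 11.16 and 11.35 in CD8- cDC, 13.36 and 13.68 in macrophages and 13.02 and 13.12 in CD8+ cDC, 4.82-fold and 3.52-fold lower (adjusted p = 0.00321 and 0.0206). Another Cd86 probe was also called lower than both, by -2.33 and -1.75. A further probe was called lower than macrophages (-1.99) but not than CD8+ cDC (0.27, adjusted p = 0.943). Il15, a cytokine that sustains CD8 T cells and natural killer cells, was at 8.32 and 8.87 in CD8- cDC, 10.81 and 10.96 in macrophages and 10.41 and 10.56 in CD8+ cDC, 4.89-fold and 3.70-fold lower. Cxcl9, a chemokine that binds Cxcr3 on T cells, was at 10.35 and 10.42 in CD8- cDC, 11.71 and 12.52 in macrophages and 13.06 and 13.60 in CD8+ cDC, 3.32-fold and 7.69-fold lower (adjusted p = 0.0397 and 0.0344). Other costimulation genes went the opposite way against macrophages. Of 22 listed, 9 were higher and 2 lower than in macrophages (5.93% and 7.14% over all genes). Against CD8+ cDC 0 were higher and 1, Cd86, lower (0.756% and 1.29% over all genes), where 6 and 4 had an unadjusted p under 0.05. Pdcd1lg2, a ligand of PD-1, was at 7.33 and 7.65 in CD8- cDC, 5.58 and 4.85 in macrophages and 5.30 and 5.89 in CD8+ cDC, with a difference of 1.89 from CD8+ cDC that was not called (adjusted p = 0.0887).

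Receptors contributed Tlr12, Treml4 and P2ry14. Tlr12, which senses profilin of protozoa together with Tlr11, was at background in CD8- cDC, at 4.89 and 5.09, beside 6.73 and 6.21 in macrophages and 7.28 and 7.43 in CD8+ cDC, at least 2.32-fold and at least 4.29-fold lower (adjusted p = 0.0172 and 0.0219). Treml4, an immunoglobulin-type receptor that binds dying cells, was at 9.44 and 9.11 in CD8- cDC, 12.35 and 12.36 in macrophages and 11.04 and 11.28 in CD8+ cDC, 8.47-fold and 3.71-fold lower. P2ry14, a receptor for UDP-glucose, was at 10.57 and 9.60 in CD8- cDC, 12.06 and 12.34 in macrophages and 13.12 and 13.20 in CD8+ cDC. Its call against CD8+ cDC, 8.43-fold lower (adjusted p = 0.0342), had adjusted p = 0.051 with the replicate number as a block. Aif1, the calcium-binding protein Iba1 that is used to stain macrophages, was at 11.03 and 10.75 in CD8- cDC, 13.24 and 13.50 in macrophages and 12.46 and 12.88 in CD8+ cDC, 5.58-fold and 3.44-fold lower. Against CD8+ cDC it had adjusted p = 0.0358, and 0.0522 with the replicate number as a block.

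Macrophages and CD8+ cDC were called different in 31 of the 85 lower genes, with macrophages the brighter in 25 and CD8+ cDC in 6. In the other 54 their difference was not called, which does not show that they were equal. The 95% interval of macrophages minus CD8+ cDC lay within 1 log2 unit of 0 in 37 of the 85. For Dtnb, a dystrobrevin, the difference was -0.01 with limits of -0.39 and 0.37. Pdia4, a folding enzyme of the endoplasmic reticulum, had the narrowest interval among the 8 nearest genes, from -0.33 to 0.08, and was at 9.11 and 9.16 in CD8- cDC, 10.22 and 10.17 in macrophages and 10.30 and 10.33 in CD8+ cDC. For Plpp1 the interval ran from -0.93 to 1.02 and for Cadm1 from -0.70 to 0.96. Cttnbp2nl, Ppfibp2, Prodh and Fmnl2 completed the 8, with differences between -0.15 and 0.08.

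The 6 lower genes with CD8+ cDC called above macrophages had P3h2 as their extreme. P3h2, a prolyl hydroxylase acting on collagen, was at 5.33 and 5.01 in CD8- cDC, 6.66 and 6.89 in macrophages and 9.60 and 9.84 in CD8+ cDC, with the CD8- cDC arrays on either side of background. It was at least 21.5-fold lower than CD8+ cDC and at least 2.79-fold lower than macrophages. Among the 25 with macrophages brighter, Myo9a, an unconventional myosin, was at 8.27 and 8.02 in CD8- cDC, 11.82 and 11.93 in macrophages and 9.41 and 9.53 in CD8+ cDC, 13.3-fold and 2.50-fold lower.

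Further probes of the same genes bore on these calls. The 77 higher genes had 37 other probes above background, of which 36 differed the same way against both populations and 9 were called the same way against both. The 85 lower genes had 73, of which 63 differed the same way and 20 were called. In neither set was another probe called the opposite way against either population.

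The mean contrast alone also raised genes that did not pass against each population. On the high side the leading ones were Cdhr3, Sucnr1, Mmp12, Ppp1r14a and Pglyrp1. Sucnr1, the receptor for succinate, was at 9.59 and 9.66 in CD8- cDC, 5.53 and 5.32 in macrophages and 4.95 and 6.57 in CD8+ cDC, with a difference of 3.86 from CD8+ cDC and adjusted p = 0.0546. Cdhr3, a cadherin-related protein, was at 9.40 and 9.93 in CD8- cDC, 5.90 and 5.54 in macrophages and 4.52 and 6.23 in CD8+ cDC (adjusted p = 0.0548 against CD8+ cDC). Mmp12, the macrophage elastase, was at 10.45 on both CD8- cDC arrays, 7.52 and 6.28 in macrophages and 6.22 and 7.60 in CD8+ cDC, with a mean contrast of 3.55 (adjusted p = 0.0343, and 0.0548 with the replicate number as a block). In these 3 genes no array of another population reached the CD8- cDC values, a pattern that 10.6% of all genes showed. Their CD8+ cDC arrays lay more than 1 log2 unit apart.

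On the low side these genes were Ptgis, Pparg, Scamp5, Dkk3 and Cd14, and most had a single dominant population. Ptgis, prostacyclin synthase, was at 6.16 and 4.45 in CD8- cDC, 11.73 and 12.04 in macrophages and 9.84 and 9.50 in CD8+ cDC, at least 72.4-fold lower than macrophages (adjusted p = 0.00609), and its difference of -4.36 from CD8+ cDC fell just short (adjusted p = 0.0501). Dkk3, a secreted relative of Wnt inhibitors, was at 5.42 and 4.44 in CD8- cDC, 6.88 and 6.16 in macrophages and 10.82 and 10.33 in CD8+ cDC, called against CD8+ cDC (at least 37.6-fold lower, adjusted p = 0.0195) and not against macrophages (adjusted p = 0.105, and 0.0128 with the replicate number as a block). Cd14, a receptor for lipopolysaccharide, was at 6.78 and 5.68 in CD8- cDC, 11.68 and 12.27 in macrophages and 7.10 and 7.60 in CD8+ cDC, so the contrast came from macrophages.

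Gene lists are given by their counts. Of 32 lymphotoxin, TNF family and NF-kB genes, 8 were higher (2.54% over all genes) and 0 lower in the mean contrast, with a median of 0.36 beside -0.01 over all genes, and 15 and 0 had an unadjusted p under 0.05. Against macrophages 11 were higher (5.93% over all genes) and 0 lower, with 16 and 3 at an unadjusted p under 0.05. Against CD8+ cDC, where 0.756% of all genes were higher, 0 were called, and 7 were higher and 1 lower at an unadjusted p under 0.05. Ltb, lymphotoxin beta, was at 11.96 and 12.06 in CD8- cDC, 8.97 and 7.76 in macrophages and 10.01 and 10.12 in CD8+ cDC, with a difference of 1.95 from CD8+ cDC that was not called (adjusted p = 0.129). Both CD8- cDC arrays were above all others, as in 10.6% of all genes.

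Of 24 Notch pathway genes, 2 were higher and 4 lower in the mean contrast (2.54% and 3.75% over all genes), with 3 and 8 at an unadjusted p under 0.05. Notch2, Notch3, Dll4, Hes5, Rbpj and Maml3 were at background on all 6 arrays, so they say little about the populations. Dtx1, a target of Notch signalling, was at 10.77 and 10.53 in CD8- cDC, 7.53 and 6.55 in macrophages and 7.94 and 8.20 in CD8+ cDC, called in the mean contrast (3.10, adjusted p = 0.0148) and just missing against CD8+ cDC (2.58, adjusted p = 0.0511). Maml2, a coactivator of Notch, went the other way, at 7.12 and 7.36 in CD8- cDC, 9.49 and 9.37 in macrophages and 8.96 and 8.53 in CD8+ cDC. It was lower than both, with adjusted p = 0.0399 against CD8+ cDC and 0.0596 with the replicate number as a block.

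Of 21 Toll-like receptor pathway genes, 2 were higher and 4 lower in the mean contrast (2.54% and 3.75% over all genes), with 5 and 9 at an unadjusted p under 0.05. Against macrophages 0 were higher and 8 lower (5.93% and 7.14% over all genes), where 5 and 9 had an unadjusted p under 0.05. Tlr1, which pairs with Tlr2 to sense lipopeptides, was at 10.48 and 10.59 in CD8- cDC, 9.38 and 9.91 in macrophages and 7.94 and 8.08 in CD8+ cDC, called against CD8+ cDC (2.52, adjusted p = 0.0195) and not against macrophages (0.89, adjusted p = 0.0624). Tlr4, the receptor for lipopolysaccharide, was at 6.25 and 5.79 in CD8- cDC, 10.66 and 10.72 in macrophages and 5.79 and 6.73 in CD8+ cDC. Of 28 genes for uptake of dying cells, scavenging and complement, 0 were higher and 5 lower in the mean contrast (2.54% and 3.75% over all genes). At an unadjusted p under 0.05 the counts were 0 and 17. Against macrophages 0 were higher and 15 lower (5.93% and 7.14% over all genes). Against CD8+ cDC 0 were higher and 2, Scarb1 and Scarb2, lower (0.756% and 1.29% over all genes). The list's median difference was -3.26 from macrophages and -0.07 from CD8+ cDC.

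Of 40 cytokine and cytokine receptor genes, 0 were higher and 5 lower in the mean contrast (2.54% and 3.75% over all genes), with 7 and 7 at an unadjusted p under 0.05, and Il15 was the 1 gene called against CD8+ cDC. Of 26 genes of the immediate early and stress response, 0 were called in the mean contrast in either direction (2.54% and 3.75% over all genes). At an unadjusted p under 0.05, 3 were higher and 0 lower. Of 25 cell division genes, 7 were higher (5.93% over all genes) and 0 lower than in macrophages, with 20 and 0 at an unadjusted p under 0.05, and 0 were called against CD8+ cDC, where 1 was higher at an unadjusted p under 0.05. Hmgb2, a chromatin protein of dividing cells, was at 10.80 and 10.45 in CD8- cDC, 7.73 and 7.11 in macrophages and 10.04 and 9.63 in CD8+ cDC.

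**Figure D5:**
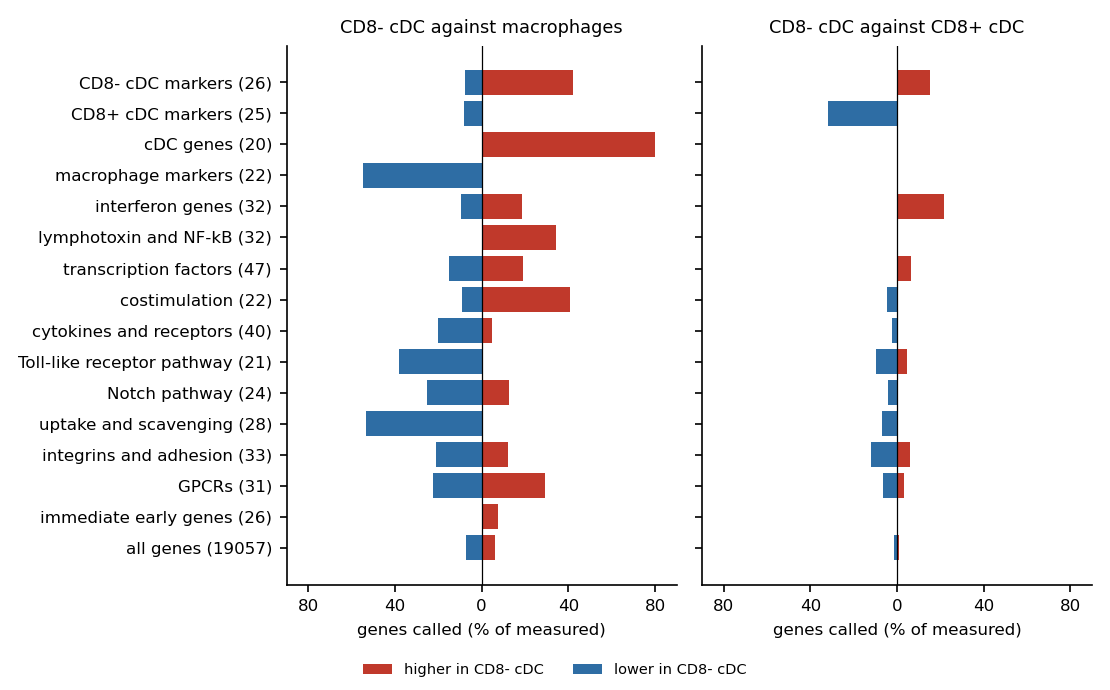
Percent of the measured genes of each list (number in parentheses) called higher (red, to the right) or lower (blue, to the left) in CD8- cDC than in macrophages (left panel) or CD8+ cDC (right panel). Against CD8+ cDC the interferon genes have 7 of 32 called higher and 0 lower (0.756% and 1.29% over all genes). Against macrophages uptake genes have 15 of 28 called lower (7.14% over all genes). Genes of all cDC have 16 of 20 called higher than macrophages (5.93% over all genes) and 0 called against CD8+ cDC.

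In 26 genes CD8- cDC lay between the other populations, with both separate comparisons called in opposite directions. CD8- cDC were above CD8+ cDC and below macrophages in 11 genes, and above macrophages and below CD8+ cDC in 15. Zeb2, a transcriptional repressor of myeloid and lymphoid cells, was at 8.64 and 8.74 in CD8- cDC, 10.32 and 10.48 in macrophages and 7.51 and 7.52 in CD8+ cDC, with differences of -1.71 and 1.18 (adjusted p = 0.00242 and 0.0206). Cxcl16, a chemokine that also binds oxidised lipoprotein, had the reverse order, averaging 10.16 ± 0.22 in CD8- cDC, 8.48 ± 0.06 in macrophages and 11.43 ± 0.21 in CD8+ cDC (SD, n = 2 each), with differences of 1.68 and -1.28 (adjusted p = 0.00732 and 0.0455). Tlr7, the endosomal receptor for single-stranded RNA, was at 9.41 and 9.98 in CD8- cDC, 11.28 and 11.24 in macrophages and 8.27 and 8.03 in CD8+ cDC. It was called against macrophages (-1.56, adjusted p = 0.0177) and not against CD8+ cDC (1.55, adjusted p = 0.0548).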

How the data were processed

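RNA of mouse spleen cells was measured on 6 Illumina bead arrays, 2 each of CD8- cDC, macrophages and CD8+ cDC, grouped by the cell type and replicate number of the labels. The authors deposited a table of log2 values, already normalized between arrays, since the sorted columns differ by at most 0.0349. The base of the log is inferred from the range of the values. BeadStudio and limma are the tools listed in the submitters' processing notes, with neither version nor role. A table of signals before normalization has 6 signal columns among 12 whose names match no label, so they were not used. Of 45281 probes, 34885 have 1 gene symbol in the platform annotation, 18 several and 10378 none. Array number and signal over background limit the precision.

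All probes were fitted with limma 3.58.1 (R 4.3.3), lmFit and eBayes, with 1 coefficient per population and no covariate, giving 4 comparisons and Benjamini-Hochberg adjustment over all probes in each. The fit was also run on simulated data with independent noise on each array. Those data lack the correlated replicate differences described below, so they do not vouch for the calls. Tables and figures were made with Python 3.11.15, pandas 2.3.3, numpy 2.4.6 and matplotlib 3.10.9. The labels number the replicates 1 and 2 without saying what a number marks. The replicate differences of the populations correlated over 17710 probes above background (r = 0.264 for CD8- cDC and macrophages, 0.276 for CD8- and CD8+ cDC, 0.403 for macrophages and CD8+ cDC), so the number was treated as a possible pairing and the blocked adjusted p is given where it changes a call.

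Named are the 20 highest and 20 lowest genes by the smaller difference, the 5 leading genes per direction called only in the mean contrast, the 8 lower genes in which macrophages and CD8+ cDC were closest, up to 4 called members of each of 34 lists, the markers, and further list members or genes apart as examples, some of them chosen after their values were seen. Members, lists and tests were chosen with earlier results of these data known, so they are not independent support. Lists are described by counts and medians with no test of the list. Alternatives were the replicate block, a filter on dim probes, a variance trend, a second quantile normalization, another probe per gene, another background level and leaving out each array.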

Additional observations from a re-analysis of the deposited data

How the results depend on the processing

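With the replicate number as a block, the calls numbered 1396 for CD8- cDC against the mean of both populations (1199 without it), 2751 against macrophages (2492), 379 against CD8+ cDC (389) and 2545 for macrophages against CD8+ cDC (2250), with 72 genes higher (77) and 87 lower (85) than both. Over the comparisons of the named genes, 233 stayed on their side of the threshold with the block, 13 lost the call, 8 gained it and 0 reversed. Testing only the 17710 probes above background on at least 2 arrays gave 1808 calls in the mean contrast and 710 against CD8+ cDC. It gave 193 genes higher and 141 lower than both, and these held all 77 and 85. The filter changes both the number of tests and the variance prior, and the part of each was not tested. A variance prior with a trend on the mean gave 718 calls against CD8+ cDC, 184 higher and 130 lower, and kept 74 and 81, and the cause was not tested. A second quantile normalization gave 77 and 85, and the probe with the largest variance between populations gave 79 and 80.

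Leaving out 1 array at a time, the number of calls ranged from 0 to 1294 in the mean contrast, from 721 to 2137 against macrophages, from 0 to 175 against CD8+ cDC and from 772 to 1993 for macrophages against CD8+ cDC. The genes higher than both ranged from 0 to 40 and those lower from 0 to 41. The lone array left in a population is then assumed to vary like the others. Each of the 77 and 85 genes kept its direction against both populations in all 6 of these fits, as genes without overlap of arrays must. With all arrays, 4153 genes in the mean contrast and 2806 against CD8+ cDC had an unadjusted p under 0.05. Signals near background, as for Itgam and Galc, understate a difference, and a background level at the 95th percentile (4.91) makes the minimum folds larger. No detection calls were available to set that level per array.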
